A study of Homo sapiens with 6 samples.

Results

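Integrins are paired receptors of the cell surface, and focal adhesions are the protein assemblies that tie them to actin. Transcripts of 40 such genes were measured in Syy-treated LX2 cells (3 arrays) and in LX2 cells of the control group (3 arrays). The genes were a fixed list of symbols, chosen with earlier results of these data known. It held 20 integrin subunits and 20 cytoplasmic adhesion proteins, and all 40 were found among the 18365 genes measured. LX2, used in both groups, is a single immortalized line derived from human hepatic stellate cells, which lay down scar matrix in the liver. Syy is a code name for a small molecule described by the submitters as an inhibitor of secretion by stellate cells. The labels give neither its dose, nor the length of treatment, nor the vehicle of the controls. RNA of each sample was labelled with Cy5 and hybridised to a one-channel Phalanx array. Nothing in the labels states that replicates are separate cultures, and the p-values therefore reflect a spread that may be technical.

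An integrin is built of an alpha and a beta chain, and the pairing sets which matrix protein is bound. Talin and kindlin bind the beta tail and switch the receptor on, vinculin strengthens the link of talin to actin, and the complex of ILK, PINCH and parvin forms a further bridge. FAK, SRC and the scaffolds paxillin and p130Cas carry the signal, while zyxin, VASP and the tensins sit near the actin end. In stellate cells these structures are known for sensing the stiffness of fibrotic matrix and, through the integrins that bind latent TGF-beta, for releasing that factor.

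With Syy, 10 of the 40 genes rose, 2 fell and 28 did not pass the test. The genes that rose were TNS1, TLN1, TNS3, VCL, PXN, ITGA3, TLN2, ITGB4, PARVA and ILK, and those that fell were FERMT2 and ITGA2. Over all genes 11.0% were called higher and 11.5% lower (limma with Benjamini-Hochberg adjustment over all 18365 genes, threshold 0.05). As the 40 genes were chosen with earlier results known, their shares were not tested against these. The median log2 fold change of the 40 genes was 0.14, beside 0.00 over all genes. The cytoplasmic proteins had 8 genes higher and 1 lower of 20, and the integrin subunits had 2 higher and 1 lower of 20. TNS1 and TLN1 were the 2 members that differed by at least 2-fold, and 2.18% of all genes did so in either direction. Values are log2(value + 16), quantile normalized over the 6 arrays, and fold changes on this scale understate the change of dim genes. In bulk RNA, fewer cells of a type and less RNA per cell cannot be told apart.

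**Figure D1:**
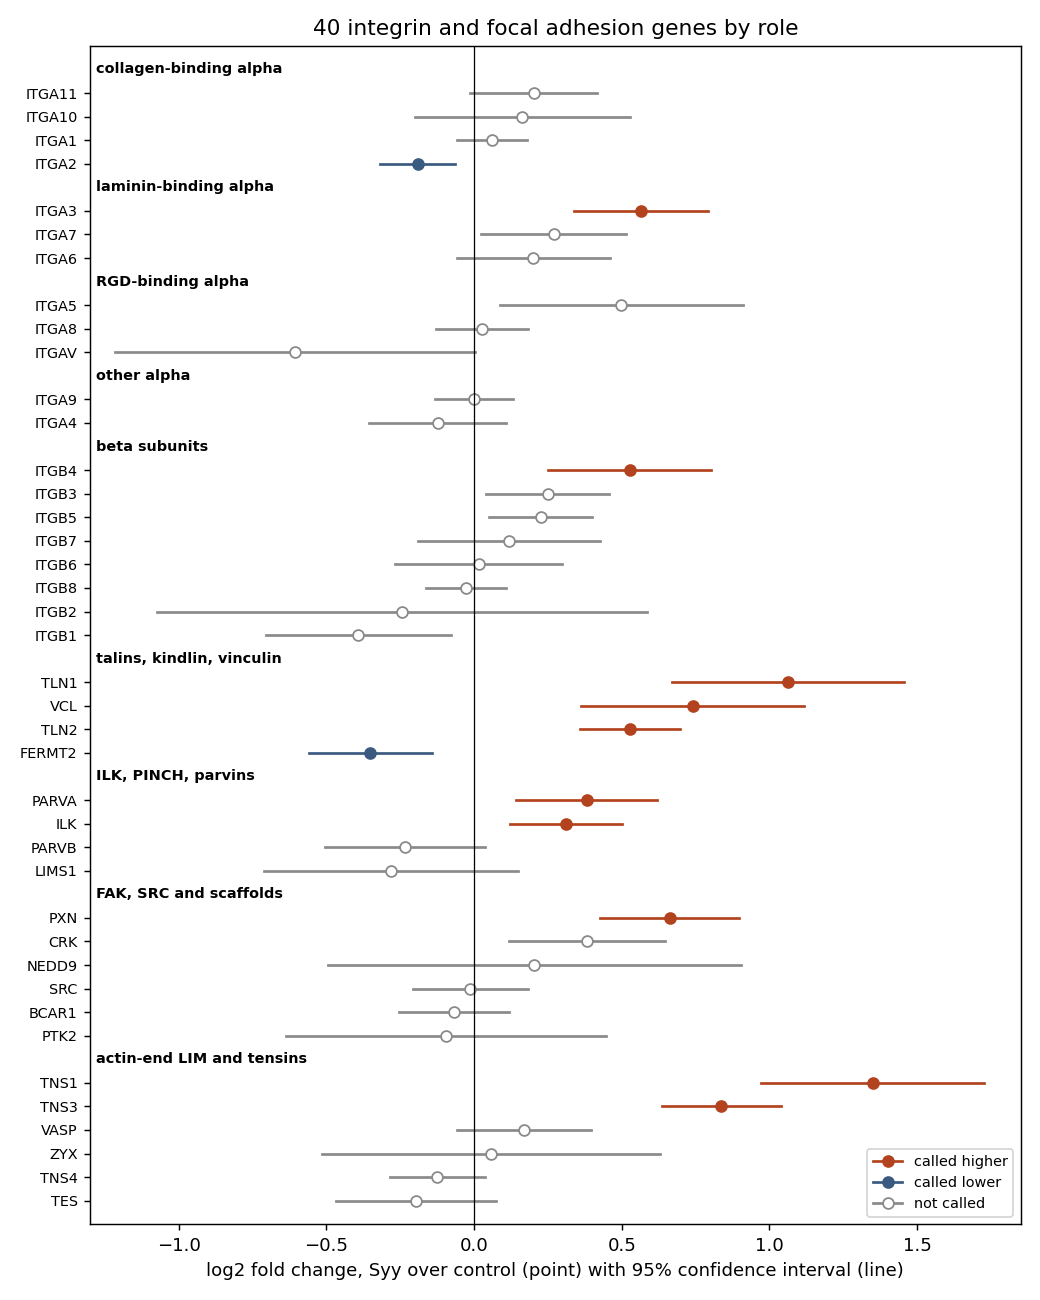
Log2 fold change of Syy over control for each of the 40 genes, grouped by role, with the 95% confidence interval of the limma fit over 3 Syy and 3 control arrays. Filled points passed the test, 10 to the right of 0 and 2 to the left, and open points did not.

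The array labelled Syy replicate 3 stood apart from the other 5 in its hepatocyte markers. The mean log2 level of 15 measured hepatocyte markers was 5.13, 5.48 and 7.85 with Syy and 5.48, 5.35 and 5.35 in controls. SERPINA1 was the 1 hepatocyte marker called higher. It was higher on every Syy array than on any control array, at 5.96, 6.72 and 7.67 with Syy and 5.19 on each control array. RBP4, AFP, APOA1, APOA2 and TTR averaged above the median of all probes in both groups. Of these, AFP, APOA1, APOA2 and TTR were lower on Syy replicates 1 and 2 than on any control array and highest on replicate 3. APOA2 read 5.2, 6.5 and 14.1 with Syy and 7.5, 7.0 and 6.7 in controls. APOA1 read 6.18, 5.91 and 11.72 with Syy and 7.58, 7.34 and 6.95 in controls. RBP4 read 7.13, 7.86 and 11.15 with Syy and 7.54, 7.04 and 7.82 in controls. The stellate markers COL1A1, ACTA2, PDGFRB and VIM lay above the median of all probes in both groups, whereas LRAT, DES, DCN and LUM lay below it, so these markers give only part of the stellate profile. Of 14 stellate markers, VIM, COL1A1, ACTA2 and COL3A1 were called higher with Syy and none lower. RELN, also of that list, read 6.22, 6.76 and 9.80 with Syy and 6.67, 6.49 and 6.62 in controls. Leukocyte markers had mean levels of 6.46, 6.44 and 6.30 with Syy and 6.22, 6.22 and 6.19 in controls. PTPRC, CD3E and SPI1 lay at the floor of the array, and CD14 and LCP1 were called higher. CD14 averaged 11.33 with Syy and 10.61 in controls, and LCP1 averaged 7.89 and 7.37. CD68 (8.48 and 8.37) and CORO1A (8.32 and 8.15) also lay above the median of all probes in both groups. Epithelial markers had means of 5.36, 5.36 and 5.83 with Syy and 5.39, 5.64 and 5.43 in controls, and none of 8 was called. EPCAM and GRHL2 lay at the floor, whereas KRT7 read 9.79, 9.82 and 9.71 with Syy and 9.85, 9.83 and 10.31 in controls, and KRT19 read 5.42, 5.45 and 8.72 with Syy and 5.81, 7.35 and 5.52 in controls. Endothelial markers had means of 5.62, 5.91 and 5.61 with Syy and 5.61, 5.37 and 5.54 in controls, with ESAM called lower and no other gene called. PECAM1, KDR, CLDN5 and VWF lay below the median, while TIE1 read 9.39, 9.96 and 9.26 with Syy and 8.88, 8.87 and 8.97 in controls, and did not pass (adjusted p = 0.062, limma). CDH5 and ESAM averaged above the median in both groups and TEK with Syy. The part of these other cell markers in the adhesion results was not tested. Without Syy replicate 3, 10 of the 40 adhesion genes were higher and 2 lower, beside 9.73% and 10.7% of all genes. ITGB4 and ITGA2 were no longer called on those 5 arrays, and ITGA11 and ITGAV were called.

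Among the alpha chains that pair with ITGB1 to bind laminin, ITGA3 rose. ITGA3 read 10.56, 10.70 and 10.39 with Syy and 9.91, 10.05 and 9.99 in controls. Every Syy array lay above every control array, and the log2 fold change was 0.56 ± 0.09 (SE), or 1.48-fold (adjusted p = 0.011, limma). The call held in all 14 alternative settings, with adjusted p from 0.00401 to 0.0473. The other laminin-binding chains read higher without passing. ITGA7, known best from muscle, read 9.53, 9.46 and 9.25 with Syy against 9.05, 9.27 and 9.11 in controls, so the lowest Syy array lay under the highest control array (0.27, 95% interval 0.02 to 0.51, adjusted p = 0.115). ITGA6 read 6.94, 6.72 and 7.10 with Syy and 6.71, 6.68 and 6.77 in controls (0.20, adjusted p = 0.244). The second probe of ITGA6 read 6.26, 6.60 and 6.05 with Syy and 5.11, 5.80 and 5.88 in controls. Its difference of 0.71 did not pass (adjusted p = 0.117 over all probes), and the mean of both probes did (0.45, adjusted p = 0.0395). ITGA6 passed in 2 of 14 alternatives, with limma adjusted p up to 0.664.

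ITGA5 and ITGB1, which together form the main fibronectin receptor, differed in opposite directions and neither passed. ITGA5 read 10.16, 10.68 and 10.05 with Syy against 9.83, 9.78 and 9.78 in controls. The Syy arrays all lay above the controls but spread widely, with replicate 2 highest, and the difference of 0.50 ± 0.17 (SE) had an adjusted p of 0.0877. Without Syy replicate 2 the difference was 0.31 and passed (adjusted p = 0.0368), and it passed after median centring (0.61, adjusted p = 0.0242). ITGA5 passed in 4 of 14 alternatives, with limma adjusted p up to 0.21. ITGB1, the common partner of most alpha chains, read 11.60, 11.97 and 12.04 with Syy and 12.35, 12.23 and 12.20 in controls. All Syy arrays lay below the controls, and the log2 fold change of -0.39 (95% interval -0.71 to -0.08) did not pass (adjusted p = 0.0796). ITGB1 passed in 2 of 14 alternatives, among them median centring (0.039), with limma adjusted p up to 0.282. Its second probe gave 8.88, 8.74 and 9.0 with Syy and 8.84, 8.76 and 8.73 in controls, a difference of 0.10 in the other direction (adjusted p = 0.472 over all probes).

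ITGAV, the alpha chain of the integrins that bind vitronectin and latent TGF-beta, separated the Syy arrays from each other. It read 6.13 and 6.33 on Syy replicates 1 and 2 but 7.06 on replicate 3, against 7.11, 7.25 and 6.98 in controls. Replicate 3 thus lay within the control range, and the log2 fold change of -0.61 ± 0.25 (SE) did not pass (adjusted p = 0.144). Without that array, the one with the highest hepatocyte marker level, the change was -0.87 and passed (adjusted p = 0.0124). ITGAV passed in 2 of 14 alternatives, each without Syy replicate 3, with limma adjusted p up to 0.389. The second ITGAV probe lay below the median of all probes and differed by 0.05. Whether the hepatocyte transcripts had a part in the ITGAV value of replicate 3 was not tested.

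Among the beta chains that pair with ITGAV, ITGB5 read 12.03, 11.93 and 12.02 with Syy and 11.80, 11.65 and 11.85 in controls. The groups did not overlap, but the difference of 0.22 ± 0.07 (SE) did not pass (adjusted p = 0.0728). ITGB5 passed in 1 of 14 alternatives, the values as deposited (0.0332), with limma adjusted p up to 0.239. In those unnormalized values, 81.0% of all calls were higher. ITGB3, from a probe below the median, was listed at intensities of 18.7, 15.8 and 14.4 with Syy against 10.8, 12.2 and 6.4 in controls, and did not pass (adjusted p = 0.0895). ITGB6 read 5.80, 5.76 and 5.43 with Syy and 5.67, 5.71 and 5.56 in controls, and the groups overlapped. ITGB8 lay at the floor, with intensities of 1.0 to 2.2 units over the 6 arrays.

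ITGB4, the laminin receptor chain that pairs with ITGA6 and anchors hemidesmosomes in epithelia, was the beta chain that rose. It read 8.02, 8.16 and 8.02 with Syy and 7.31, 7.66 and 7.64 in controls. The groups did not overlap, and the change was 0.53 ± 0.11 (SE), or 1.44-fold (adjusted p = 0.0234, limma). The second probe of ITGB4 lay below the median and differed by 0.07. The call was lost in 8 of 14 alternatives, among them the omission of any 1 Syy array or of control replicate 2 or 3, with adjusted p from 0.00494 to 0.11 over all of them. Of the epithelial markers, EPCAM and GRHL2 were at the floor in both groups, KRT7 was well above the median in both and KRT19 varied between arrays. None of the 8 was called, and their part in the ITGB4 result was not tested.

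Collagen-binding alpha chains gave low signals, near or below the median of all probes. ITGA11, the fibroblast receptor for fibrillar collagen, read 5.65, 5.76 and 5.45 with Syy and 5.45, 5.40 and 5.41 in controls. The difference of 0.20 did not pass (adjusted p = 0.163). ITGA11 passed in 1 of 14 alternatives, without Syy replicate 3 (0.0336), with limma adjusted p up to 0.335. ITGA2 was listed at 11.8, 12.6 and 9.6 units with Syy and at 14.1, 14.2 and 12.0 units in controls, so the unnormalized groups overlapped. On the normalized scale all Syy arrays lay below the controls and the gene fell by 0.19 (adjusted p = 0.0464). That call was lost in 12 of 13 alternatives, among them the omission of any 1 array, and the second ITGA2 probe differed by 0.03. ITGA1 was listed at 0.9 to 2.0 units and ITGA10 at 12.2 to 25.2 units, and neither passed.

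Integrin chains known mainly from leukocytes gave no call. ITGA4 read 6.61, 6.44 and 6.44 with Syy and 6.46, 6.66 and 6.75 in controls (-0.12, adjusted p = 0.42). ITGB2 was listed at 29.6, 2.1 and 18.3 units with Syy and 20.6, 13.2 and 20.2 units in controls, the lowest value being that of Syy replicate 2. ITGB7 was listed at 4.3 to 11.6 units over all arrays. ITGA8 and ITGA9, which are not leukocyte chains, were listed at 0.0 to 2.0 and 0.0 to 1.1 units. None of these 4 dim genes passed.

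The larger changes lay on the cytoplasmic side of the receptor. TLN1, which encodes the talin that activates integrins and carries force to actin, rose 2.09-fold. It read 11.96, 12.37 and 11.77 with Syy and 11.07, 10.91 and 10.94 in controls, a change of 1.06 ± 0.16 (SE, adjusted p = 0.0088, limma). The deposited intensities were 4221, 5664 and 3444 units with Syy and 2058, 1822 and 1751 units in controls. The lowest Syy array exceeded the highest control array on both scales. TLN2, a second talin, was dim, at 23.7, 24.2 and 25.0 units with Syy and 9.8, 11.2 and 9.2 units in controls. It rose by 0.53 ± 0.07 (SE, adjusted p = 0.00603), its second dim probe also rose (0.38, adjusted p = 0.00927 over all probes), and the size ran from 0.21 to 1.01 with the pseudocount.

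VCL, which encodes vinculin, a protein recruited to talin under tension, rose 1.67-fold. It read 12.01, 12.30 and 12.06 with Syy and 11.57, 11.49 and 11.09 in controls, and both probes gave like changes (0.74 and 0.73). Control replicate 3 was the lowest of the controls, and the groups did not overlap. The change of 0.74 ± 0.15 (SE) had an adjusted p of 0.0215. The call was lost without Syy replicate 1, Syy replicate 2 or control replicate 2 and in 2 further alternatives, with adjusted p from 0.00498 to 0.13 over all 14.

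FERMT2, which encodes the kindlin that works with talin at the beta tail, gave opposite answers from its probes. On the brighter probe it read 8.78, 8.87 and 9.05 with Syy against 9.28, 9.18 and 9.30 in controls, and fell by 0.35 (adjusted p = 0.0339). The second probe read 5.89, 5.71 and 5.75 with Syy against 5.57, 5.51 and 5.48 in controls. It rose by 0.26 (limma adjusted p = 0.0387 over all probes). The mean of both probes differed by -0.04 (adjusted p = 0.59). As deposited, the brighter probe gave 455.9, 531.2 and 548.1 units with Syy and 577.9, 522.2 and 518.6 units in controls, which overlap. The fall was lost in 11 of 14 alternatives, among them the omission of Syy replicate 1 or 2 or of any 1 control, so the direction of FERMT2 is uncertain.

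**Figure D2:**
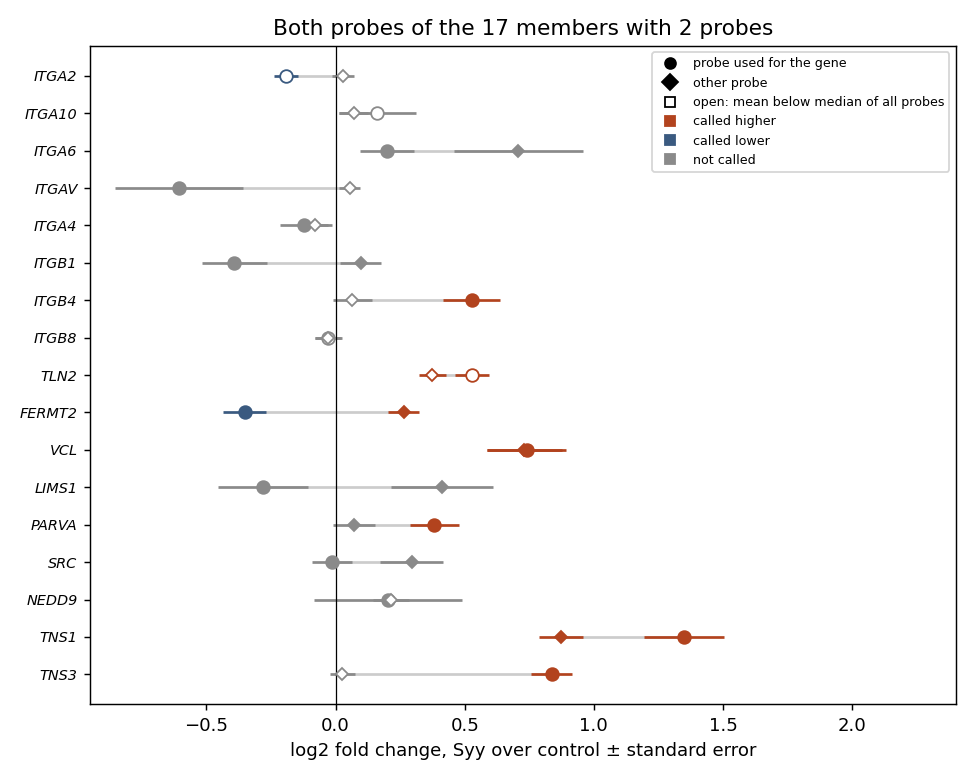
Log2 fold change of Syy over control with its standard error for both probes of the 17 genes that had 2 probes. VCL, TNS1 and TLN2 were called higher on both probes, while the probes of FERMT2 were called in opposite directions.

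In the complex of ILK, PINCH and parvin, ILK and PARVA rose by small amounts. ILK, the scaffold that binds the beta tail, read 12.90, 13.02 and 12.75 with Syy and 12.60, 12.57 and 12.58 in controls. The controls were nearly identical and lay below every Syy array, and the change was 0.31 ± 0.08 (SE, 1.24-fold, adjusted p = 0.0378). PARVA, an actin-binding partner of ILK, read 8.10, 8.33 and 8.04 with Syy and 7.86, 7.81 and 7.66 in controls (0.38 ± 0.10 SE, 1.30-fold, adjusted p = 0.0399). Its second probe differed by 0.07 without passing. Both calls were lost in most alternatives, 10 of 14 for ILK and 9 of 14 for PARVA, including without Syy replicate 1 or 2 or any 1 control. Adjusted p ran from 0.0173 to 0.13 for ILK and from 0.0107 to 0.131 for PARVA.

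LIMS1, the PINCH adaptor, and PARVB, the other parvin, did not pass. LIMS1 read 7.94, 8.05 and 7.86 with Syy and 8.53, 8.29 and 7.86 in controls, and its probes differed in sign (-0.28 and 0.41). PARVB read 9.46, 9.41 and 9.31 with Syy and 9.41, 9.69 and 9.79 in controls, a difference of -0.23 (adjusted p = 0.195). PARVB passed in 1 of 14 alternatives, without control replicate 1 (0.0498), with limma adjusted p up to 0.839. The groups overlapped for both genes.

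Of 6 signalling genes, PXN passed. PXN encodes paxillin, the scaffold that gathers FAK, vinculin and parvin at the adhesion. It read 9.71, 9.77 and 9.52 with Syy and 8.87, 9.10 and 9.04 in controls, so the groups were well apart, and the change was 0.66 ± 0.09 (SE), or 1.58-fold (adjusted p = 0.00776, limma). The call held in all 14 alternatives, with adjusted p from 0.00228 to 0.0467.

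The kinases of the same group did not pass. PTK2, which encodes FAK, read 7.73, 7.91 and 8.50 with Syy and 8.26, 8.24 and 7.91 in controls, with replicate 3 the highest of all Syy arrays. Its difference of -0.09 had a 95% interval of -0.64 to 0.45, which spans changes of either sign. SRC read 9.38, 9.30 and 9.39 with Syy and 9.40, 9.48 and 9.23 in controls, with an interval of -0.21 to 0.18. The second SRC probe read 8.89, 9.14 and 8.76 with Syy and 8.53, 8.80 and 8.58 in controls. Its difference of 0.29, in the other direction and outside that interval, did not pass (limma adjusted p = 0.172 over all probes). BCAR1, for p130Cas, differed by -0.07 (interval -0.26 to 0.12). CRK, an adaptor that binds phosphorylated p130Cas and paxillin, read 5.80, 6.16 and 6.04 with Syy and 5.51, 5.65 and 5.69 in controls. The groups did not overlap, and the difference of 0.38 ± 0.11 (SE) fell just short (adjusted p = 0.0543). CRK passed in 4 of 14 alternatives, among them the unnormalized values as deposited (0.0231), with limma adjusted p up to 0.258. NEDD9, a relative of p130Cas, varied among the Syy arrays at 6.08, 7.06 and 6.88 and read 6.30, 6.35 and 6.76 in controls.

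**Figure D3:**
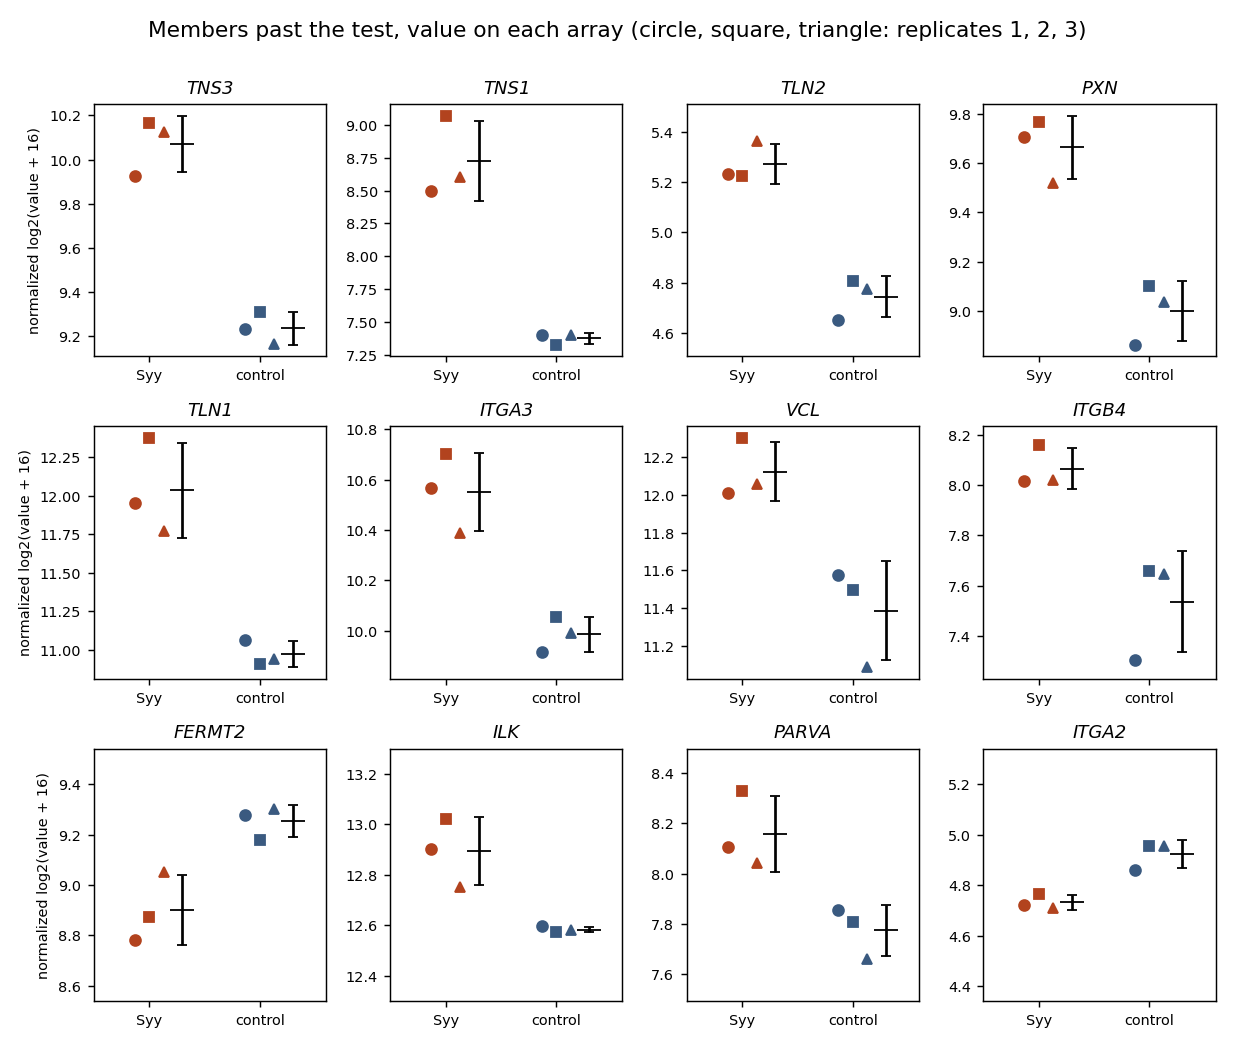
Normalized log2 value on each array for the 12 genes that passed the test, Syy left and control right, with mean and SD (n = 3 each) beside the points. The groups do not overlap in any panel, each panel has its own vertical range, and Syy replicate 2 (square) is the highest Syy array in 9 of the 10 genes that rose.

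At the actin end, TNS1 and TNS3 rose and the other 4 genes did not pass. TNS1 encodes tensin, which links the beta tail to actin and marks fibrillar adhesions. It read 8.50, 9.07 and 8.61 with Syy and 7.40, 7.33 and 7.40 in controls. The controls were nearly identical, every Syy array was higher by more than 1 log2 unit, and the change was 1.35 ± 0.15 (SE), or 2.55-fold (adjusted p = 0.00433, limma). The second TNS1 probe read 8.11, 8.28 and 8.17 with Syy against 7.16, 7.36 and 7.42 in controls, and rose by 0.87 (adjusted p = 0.00425 over all probes).

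TNS3, a second tensin, read 9.93, 10.16 and 10.13 with Syy and 9.23, 9.31 and 9.16 in controls, with no overlap. Its change was 0.84 ± 0.08 (SE), or 1.79-fold (adjusted p = 0.00318). A second TNS3 probe lay near the floor at 4.6 to 7.9 units and differed by 0.03. TNS4, the tensin without the actin-binding part, was dim at 6.7 to 11.9 units and did not pass. The calls of TLN1, TNS1 and TNS3 held in 13 of 14 alternatives each. They were lost when Syy replicate 3 and control replicate 2 were both left out, where the changes were 1.17, 1.39 and 0.85 (adjusted p = 0.0595, 0.0662 and 0.0503).

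ZYX, for zyxin, a LIM protein that moves to strained actin fibres, read 8.89, 9.67 and 8.81 with Syy and 9.13, 9.02 and 9.05 in controls. Syy replicate 2 lay above all controls and the other Syy arrays below them, and the mean difference was 0.06 (interval -0.51 to 0.63). VASP, which extends actin filaments, read 9.30, 9.30 and 9.16 with Syy and 8.97, 9.25 and 9.03 in controls (0.17, adjusted p = 0.26). TES, a partner of zyxin, was listed at 7.9 to 10.6 units with Syy and 7.4 to 17.3 units in controls. Neither passed.

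**Figure D4:**
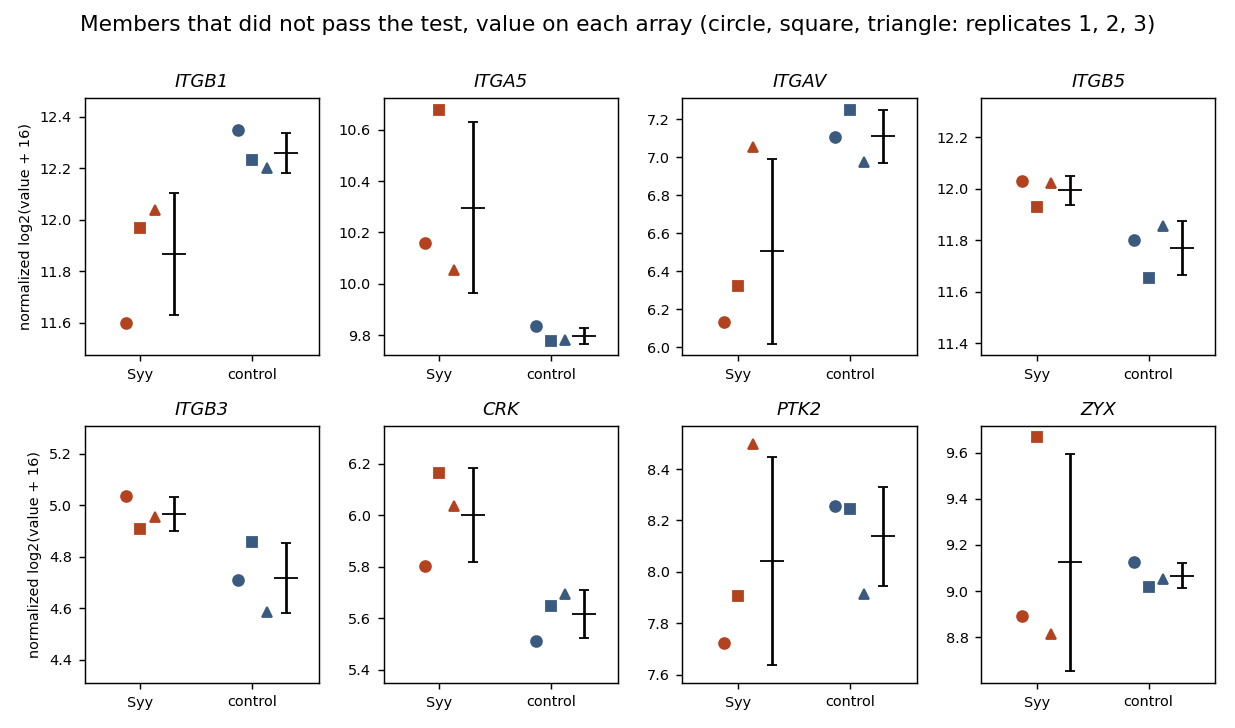
Normalized log2 value on each array for 8 genes that did not pass the test, Syy left and control right, with mean and SD (n = 3 each). ITGB1, ITGA5, ITGB5, ITGB3 and CRK do not overlap between groups, whereas 1 Syy array stands away from the other 2 in ITGAV, PTK2 and ZYX.

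Over the 40 genes, the Syy values lay wholly above the control values in 15 and wholly below in 3. Over all genes the shares were 18.9% and 19.4%. Syy replicate 2 was the highest Syy array for 9 of the 10 genes that rose, and for 47.1% of the 2017 genes called higher over the whole array. Without Syy replicate 2, 7 of the 40 genes were called higher and none lower (limma, adjusted p), beside 7.72% and 6.89% of all genes in that setting.

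All promoters of the 40 genes found in the RefSeq table, whether or not the gene passed the test, were searched for short motifs in the 250 bases before each RefSeq start (GRCh38.p14) and on both strands. The table held 53 starts of 30 of the 40 genes. The TEAD motif GGAATG, the site of the partners of YAP, was in 8 of the 53 (15.1%) and in 11.9% of all 35116 promoters. It lay before 4 of 14 starts of genes that rose, in VCL, PXN and TNS1, and before starts of ITGA5, ITGB1, ITGA10 and TES, none of which passed. The CArG box, the site of SRF, was in 2 of 53 (3.77%), in ITGB6 and TES, against 1.16% of all promoters, and shares 2 bases with a TEAD match in TES. The AP-1 motif TGANTCA was in 3.77% against 6.57%, the E-box CACGTG in 3.77% against 6.34%, the GC box GGGCGG in 50.9% against 42.6%, and the SMAD box GTCTAGAC in none against 0.182%. A match is a run of letters and does not show binding.

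The stretches of the 3 genes that rose and held a TEAD match are shown 5′ to 3′ on the strand of the gene, ending at the base before the start, with the match in capitals. Those of PXN and TNS1 lie before alternative starts, and which start is used in LX2 cells was not measured here. They are VCL at chr10:73997866-73998115 (plus strand), PXN at chr12:120250164-120250413 (minus strand), and TNS1 at chr2:217944071-217944320 and chr2:217920237-217920486 (minus strand).
VCL: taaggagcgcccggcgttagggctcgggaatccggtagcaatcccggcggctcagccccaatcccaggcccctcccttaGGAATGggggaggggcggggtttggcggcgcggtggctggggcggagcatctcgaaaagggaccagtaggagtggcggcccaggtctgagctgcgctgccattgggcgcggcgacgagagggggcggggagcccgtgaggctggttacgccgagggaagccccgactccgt
PXN: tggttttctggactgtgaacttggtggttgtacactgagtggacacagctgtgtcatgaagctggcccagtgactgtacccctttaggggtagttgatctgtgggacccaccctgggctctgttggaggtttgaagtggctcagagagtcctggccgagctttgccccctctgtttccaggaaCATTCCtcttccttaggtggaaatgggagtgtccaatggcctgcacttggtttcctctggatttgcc
TNS1, upstream start: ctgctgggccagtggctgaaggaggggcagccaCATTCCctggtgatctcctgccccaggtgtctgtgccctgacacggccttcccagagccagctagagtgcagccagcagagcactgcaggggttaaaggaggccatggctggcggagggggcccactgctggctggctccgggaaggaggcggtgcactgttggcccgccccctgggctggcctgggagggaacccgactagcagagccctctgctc
TNS1, downstream start: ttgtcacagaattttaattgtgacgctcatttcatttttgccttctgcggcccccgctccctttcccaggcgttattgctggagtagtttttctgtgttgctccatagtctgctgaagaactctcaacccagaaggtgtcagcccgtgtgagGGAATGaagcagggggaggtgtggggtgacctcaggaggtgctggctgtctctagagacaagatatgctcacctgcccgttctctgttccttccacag

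In these stretches the match begins 171 bases before the start of VCL, 67 before that of PXN, and 217 and 98 before those of TNS1.

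Beyond the 40 genes, a list of 81 further adhesion genes had 76 on the array, of which 12 rose (15.8%), 7 fell (9.21%) and 57 did not pass, with a median log2 fold change of 0.07. Over all genes the shares were 11.0% and 11.5%. This list too was chosen with earlier results of these data known, and its shares were not tested against those. ACTN1, an actin crosslinker that binds integrin tails and vinculin, read 13.93, 14.02 and 14.08 with Syy and 13.02, 13.21 and 13.14 in controls (0.89 ± 0.07 SE, adjusted p = 0.00238). KANK2, which binds talin, rose by 0.81 and FLNC, a filamin, by 0.65. ARHGEF7, an exchange factor for RAC, rose by 0.99 from a level near the median of all probes. These 4 are the called genes of the list with the smallest p, and in each the Syy arrays lay above all controls. The 7 genes that fell were ARHGEF6, ASAP2, SHARPIN, DAB2, PAK2, RAP1B and ITGB3BP. Their log2 fold changes ran from -0.42 in SHARPIN to -1.02 in ASAP2, and in each the Syy arrays lay below all controls.

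**Figure D5:**
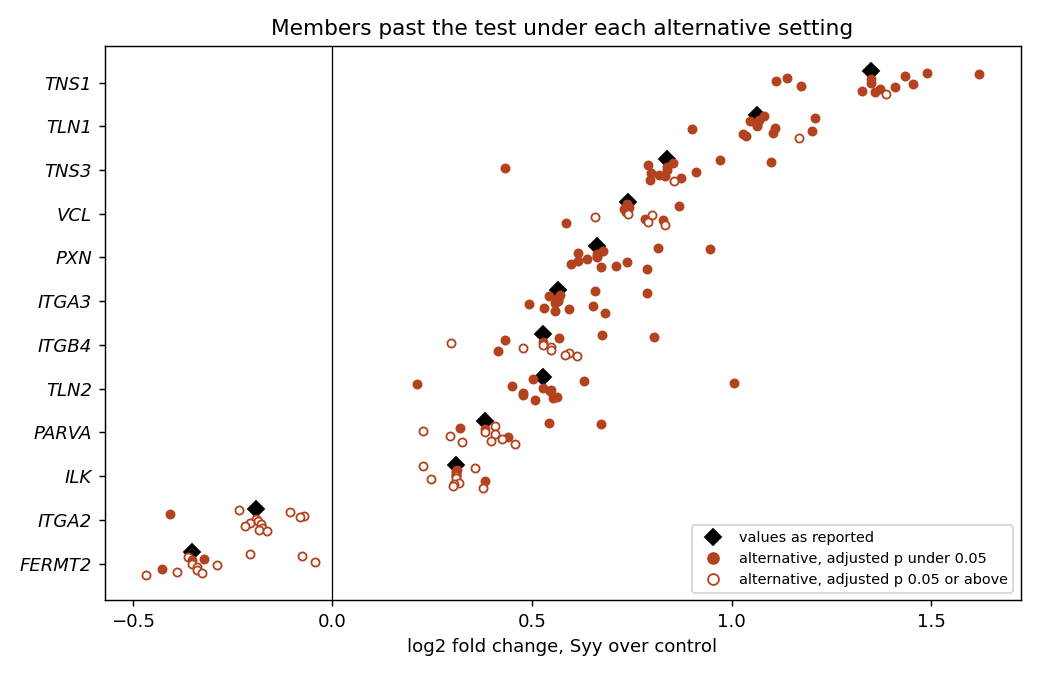
Log2 fold change of Syy over control for the 12 genes that passed the test (diamonds) and under each alternative setting (circles, filled where the adjusted p stayed under 0.05). No point crosses 0, PXN, ITGA3 and TLN2 stay filled throughout, and most circles of ITGA2, FERMT2, ILK, PARVA and ITGB4 are open.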

How the data were processed

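Per the labels' protocols, amplified Cy5-labelled RNA was hybridised to one-channel Phalanx arrays. The deposited values are linear intensities of 31741 probes, from a background and scaling method not given in the sources used here. Of the probes, 24740 had 1 gene symbol in the platform annotation, 977 had several and 6024 were unnamed here. The lowest deposited intensity was -10.6, and 1902 probes were at or below 0 on at least 1 array. Median intensity was 23.1 to 27.3 with Syy and 18.4 to 24.9 in controls. Because the distributions differed, log2(value + 16) was quantile normalized over the 6 arrays. Each gene took its probe with the highest mean. Groups came from the sample titles and were compared in R 4.3.3 by a two-sided moderated test of limma 3.58.1 without covariates, with Benjamini-Hochberg adjustment over 18365 genes. Other probes were tested in a fit over all probes. The members and lists were chosen with earlier results of these data known. Genes passing the test, integrins above the median of all probes and genes with discordant probes are given on every array. No detection flags were used, the number of arrays limits the precision, and probe sequences were not used here. The fit was tested on simulated data with shifts planted in genes above the median of all probes, and no result of it is given here. Same-numbered samples showed no pairing, since their deviations from the group means correlated at -0.11, -0.06 and -0.02. Promoter sequences are RefSeq, GRCh38.p14. Alternatives were median centring, the values as deposited, pseudocounts of 1 and 64, only genes above the median of all probes, the mean over probes, a replicate block and the omission of arrays.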

Additional observations from a re-analysis of the deposited data

How the results depend on the processing

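No gene among the 40 changed direction with a call under any of the 14 alternatives. Of the 12 genes that passed, 9 lost their call in at least 1 alternative and 3 (PXN, ITGA3 and TLN2) in none that could be run, and 10 of the 28 genes that had not passed did so in at least 1 alternative. The count of higher genes, 10 as reported, was 15 in the values as deposited, 12 after median centring, 6 with the replicate block, 3 without both Syy replicate 3 and control replicate 2, and 6 to 10 with 1 array left out. The count of lower genes, 2 as reported, was 1 after median centring or with a pseudocount of 1 or 64. That gene was ITGB1 after median centring, where ITGA2 and FERMT2 were both lost, ITGA2 with a pseudocount of 1 and FERMT2 with 64. The count was 0 in the values as deposited, with the mean over probes or with the replicate block. It was 1 without both arrays, where the gene was ITGAV, and 0 to 2 with 1 array left out. Over all genes, 2017 higher and 2104 lower as reported became 3155 and 738 in the values as deposited and 2490 and 1661 after median centring. Pseudocounts of 1 and 64 gave 1725 and 1936 higher and 1751 and 2011 lower, and the mean over probes gave 2009 and 2014. The counts were 1051 and 852 with the replicate block, and 566 and 537 without both arrays. With 1 array left out they were 1197 to 1787 higher and 1088 to 1965 lower. Of all calls 48.9% were higher as reported, 60.0% after median centring and 81.0% as deposited, where the median of all genes lay at 0.08. The further adhesion genes, 12 higher and 7 lower as reported, were 19 and 1 as deposited and 6 and 1 without both arrays, with 3 lower under the replicate block and 8 to 13 higher and 2 to 8 lower with 1 array left out. The samples share only a replicate number, so the block result carries no pairing. Fewer arrays leave less power. Signal near the floor limits what could be seen in 12 genes, whose intensities ran from 0.0 to 29.6 units.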

Other observations

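Integrin ligands and related matrix proteins formed a further list, chosen with earlier results of these data known. Of 42, 41 were measured, and 18 rose, 1 fell and 22 did not pass (limma), with a median log2 fold change of 0.33. Of all genes, 11.0% were called higher and 11.5% lower. TNC, a ligand of several integrins, read 11.46, 11.74 and 11.71 with Syy and 9.11, 8.93 and 9.30 in controls. FN1, the fibronectin bound by ITGA5 and ITGB1, read 14.49, 14.57 and 14.48 with Syy and 13.39, 13.41 and 13.18 in controls. TGFBI read 12.72, 12.74 and 12.60 with Syy and 11.69, 11.58 and 11.72 in controls, and LTBP1, which holds latent TGF-beta in the matrix, 8.25, 8.41 and 8.30 with Syy and 7.24, 7.34 and 7.23 in controls. The groups did not overlap for any of these 4 genes, the called ligands with the smallest p. LAMA4, a laminin chain, fell by 0.28, and it was named after its value was seen because it was the single ligand called lower.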
